A study of Homo sapiens with 4 samples.

Results

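The CXC chemokine genes that lie together on chromosome 4 and the receptors CXCR1 and CXCR2 were examined in CD133+ and CD133- cells sorted by flow cytometry from PLC8024, a human hepatocellular carcinoma line. The members were 8 ligand genes, CXCL8, CXCL6, PF4, CXCL1, CXCL5, CXCL3, CXCL2 and PPBP, and 2 receptor genes, chosen by name. They were chosen with earlier results of these data known. The array annotation gives them 15 probe sets as their only gene, and these are 10 of the 19775 genes named on the array. The CD133+ and the CD133- population each gave 1 RMA column and 1 MAS5 column, which are 2 processings and not replicates. The labels do not say whether one array gave both columns. No genotype, treatment, time or number of separate sorts is given in the labels, both populations came from the same line, and the sources used here do not give the purity of the sort. No difference below therefore has an error between cultures or sorts, and none has a test.

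CXC chemokines are small secreted proteins named for the spacing of their first cysteines. Those with the residues Glu-Leu-Arg before these cysteines bind CXCR2, and some also CXCR1, which are G protein-coupled receptors best known from neutrophils, and they are angiogenic. PF4 lacks these residues and is a platelet product that inhibits angiogenesis. In liver tumours CXCL8 and its relatives are studied as factors that tumour cells secrete to attract neutrophils and endothelial cells.

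PROM1, which encodes the sorted protein CD133, stood at 10.35 in CD133+ and 6.04 in CD133- cells in RMA, a difference of 4.32 on the log2 scale. Its direction was that of the labels. Of 11 hepatocyte markers, all 11 were above an expression floor, meaning that the population with more signal reached the median of its RMA column (5.16 in CD133+ and 5.14 in CD133-). Their MAS5 intensities summed to 173156 in CD133+ and 196072 in CD133- cells, and ALB, AFP and APOA1 were counted as lower in CD133+. The technical spread was read from 6170 genes with a pair of probe sets above the floor. The differences of such a pair had an SD of 0.35 around each other in RMA and 0.79 in MAS5, and 95% of the pairs lay within 0.70 in RMA and 1.64 in MAS5. This spread holds no variation between cultures, sorts or arrays.

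Most of the clustered ligand genes had higher signal in CD133+ cells, and the receptors showed no clear signal. To be counted, a gene had to pass the floor and show a difference of 2-fold or more, one way, by both RMA and MAS5. CXCL6, CXCL5, CXCL1, PF4 and CXCL3 were counted as higher, which is 5 of the 10 genes, while 1.49% of all named genes were. Because the members were chosen with earlier results of these data known, these shares describe them and test no enrichment. None of the 10 was counted as lower, against 0.723% of all named genes. Of the other 5 genes, CXCL8, CXCL2 and CXCR1 were above the floor and not counted, and PPBP and CXCR2 were below the floor in both populations. The same 5 genes also passed the rule at 3-fold in both processings, as did 0.617% of all named genes. CXCL6 passed the floor only through CD133+, so the size of its fold is uncertain.

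The representative probe sets of all 10 genes had an RMA difference above 0, except that CXCR2, at 0.02, was at -0.0029 with each RMA column centred on its median. The median log2 difference over the 10 genes was 1.28 in RMA and 1.76 in MAS5, beside medians of 0.00 and 0.01 over all named genes. Among the 8 genes above the floor the RMA median was 1.71, but CXCL6 passed the floor only through CD133+. Of the 15 probe sets 8 were counted as higher, against 1.1% of all probe sets with 1 gene. Among these 8, that of CXCL6 and the weakest of CXCL5 passed the floor only through CD133+. The array reads bulk RNA, so fewer expressing cells and less RNA per cell cannot be told apart.

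**Figure D1:**
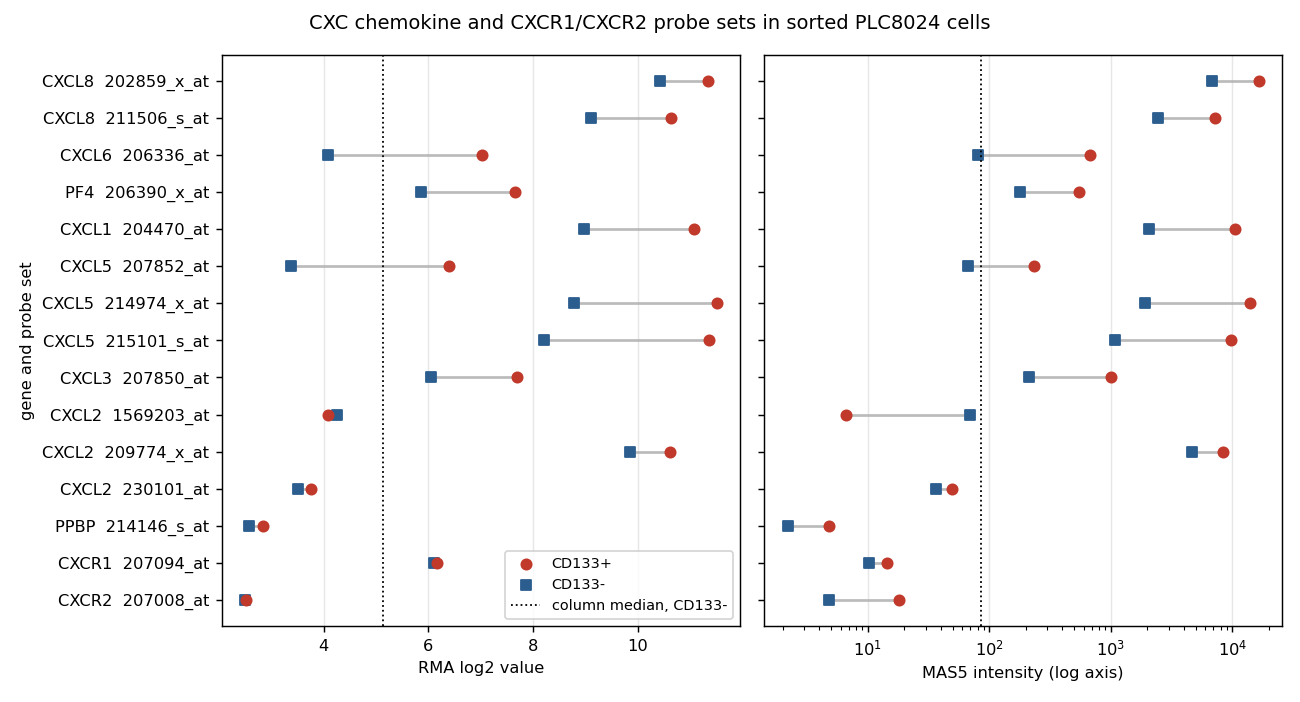
Level of each of the 15 probe sets in CD133+ (red circles) and CD133- (blue squares) cells, as RMA log2 value on the left and as MAS5 intensity on a log axis on the right, with 1 value per population. The dotted line is the median of the CD133- column over all probe sets. The probe sets of CXCL8, CXCL1, CXCL5, CXCL3, CXCL6 and PF4 lie to the right in CD133+, while CXCR2 and PPBP lie left of the line in both.

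The promoters of the inducible ligands are shown because 4 of the 5 counted genes, and CXCL8 and CXCL2 beside them, carry a shared motif close to their starts. RefSeq promoter sequences of build GRCh38.p14 were at hand for 9 of the 10 genes, all but PF4, and the 250 bases before the start of each were searched on both strands. GGAATTTCC is a spelling of the site of NF-kappaB, a factor that drives inflammatory genes. The last 150 bases before the start follow 5′ to 3′ on the gene's own strand, with this match in capitals. They lie at chr4:73740419-73740568 (plus strand) for CXCL8, chr4:73836528-73836677 (plus) for CXCL6, chr4:73869243-73869392 (plus) for CXCL1, chr4:73998678-73998827 (minus) for CXCL5, chr4:74038690-74038839 (minus) for CXCL3 and chr4:74099196-74099345 (minus) for CXCL2.
CXCL8: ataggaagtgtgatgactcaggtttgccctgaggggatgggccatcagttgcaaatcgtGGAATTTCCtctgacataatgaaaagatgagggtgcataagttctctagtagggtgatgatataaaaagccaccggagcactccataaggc
CXCL6: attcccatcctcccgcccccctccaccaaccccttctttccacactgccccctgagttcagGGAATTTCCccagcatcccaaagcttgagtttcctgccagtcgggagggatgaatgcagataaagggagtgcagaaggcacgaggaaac
CXCL5: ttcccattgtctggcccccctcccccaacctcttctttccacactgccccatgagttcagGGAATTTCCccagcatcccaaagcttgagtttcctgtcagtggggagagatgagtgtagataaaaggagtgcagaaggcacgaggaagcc
CXCL1: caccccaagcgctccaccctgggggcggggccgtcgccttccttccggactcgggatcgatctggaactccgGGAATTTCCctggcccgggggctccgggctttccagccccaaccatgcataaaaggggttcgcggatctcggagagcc
CXCL3: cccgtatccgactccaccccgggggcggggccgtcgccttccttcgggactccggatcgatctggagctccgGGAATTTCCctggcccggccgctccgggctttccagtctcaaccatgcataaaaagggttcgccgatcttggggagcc
CXCL2: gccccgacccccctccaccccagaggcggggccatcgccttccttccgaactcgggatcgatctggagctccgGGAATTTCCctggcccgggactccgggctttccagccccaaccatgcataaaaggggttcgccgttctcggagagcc

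GGAATTTCC was found in these 6 promoters and in none of those of PPBP, CXCR1 and CXCR2, and 0.413% of 35116 promoters hold it in the same window. The longer NF-kappaB consensus with free middle bases, which overlaps it, was found in 5 of the 9, all of these but CXCL8, and in 1.73% of all promoters. The 9-base match began 91 bases before the start in CXCL8, 89 in CXCL6, 90 in CXCL5, 78 in CXCL1 and CXCL3, and 77 in CXCL2. CXCL8 and CXCL2 hold the motif too, and their representative probe sets were not counted, with RMA differences of 0.93 and 0.76. PF4 was counted but had no promoter sequence to search. Whether the motif bears on the differences was not tested. A match describes letters and not binding.

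The other spellings searched matched fewer of the members. Only matches to the spelling given were counted, so variants of these sites were missed. TGANTCA, the site of the AP-1 factors, was found in the promoter of CXCL8 alone among the 9, at 137 bases before the start, and in 6.57% of all promoters. TATAAA was found in CXCL8 and PPBP, at 31 bases before the start in both, and in 10.7% of all promoters. TTGCNNAA, a spelling of the C/EBP site, was found in CXCL2 and PPBP and in 9.05% of all promoters. Some of the promoters with the 9-base match are close copies of each other. Over 129 bases centred on the 9-base match and compared without gaps, CXCL1 and CXCL3 shared 92.2% of bases and CXCL6 and CXCL5 shared 89.9%, while CXCL1 and CXCL5 shared 35.7%. CXCL2 shared 72.1% with CXCL1. The printed sequence of CXCL2 is shorter after the match, so its share without gaps understates how alike it is to CXCL1 and CXCL3. CXCL8 shared at most 32.6% with any of the others.

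CXCL8 encodes interleukin-8, the main neutrophil attractant of the family in humans, and has 2 probe sets. The one with the higher mean signal had an RMA level of 11.34 in CD133+ against 10.41 in CD133-, with MAS5 intensities of 16558 in CD133+ against 6832 in CD133-. Its difference was 0.93 in RMA, just under the 2-fold line, and 1.28 in MAS5. The other had 10.63 in CD133+ and 9.11 in CD133-, with MAS5 intensities of 7179 in CD133+ and 2428 in CD133-. Its differences were 1.52 in RMA and 1.56 in MAS5, and it was counted. Both probe sets were thus higher in CD133+, and which of them stands for the gene sets whether CXCL8 is counted. The gap of 0.59 between their RMA differences was exceeded by 7.80% of genes with a pair of probe sets.

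CXCL1, CXCL2 and CXCL3 encode closely related growth-regulated chemokines that signal through CXCR2. CXCL1 had an RMA level of 11.07 in CD133+ against 8.96 in CD133-, with MAS5 intensities of 10436 in CD133+ against 2059 in CD133-. Its difference of 2.11 in RMA is 4.31-fold and ranked 71 from the top among 13116 genes above the floor. CXCL3 had an RMA level of 7.70 in CD133+ and 6.06 in CD133-, with MAS5 intensities of 1012 in CD133+ against 212 in CD133-. It was 3.11-fold higher in RMA and 4.77-fold in MAS5. CXCL2 differed least of these. Its main probe set had an RMA level of 10.61 in CD133+ against 9.85 in CD133-, with MAS5 intensities of 8313 in CD133+ against 4645 in CD133-. It differed by 0.76 in RMA and 0.84 in MAS5. Its other 2 probe sets were below the floor, with RMA differences of 0.26 and -0.17. The negative one is the 1 member probe set of 15 with a difference below 0. These 3 genes are close in sequence, so that probe sets can share signal, and their differences are uncertain to that extent.

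CXCL5 and CXCL6 encode a pair of related chemokines, of which CXCL6 also binds CXCR1, and both were counted as higher. CXCL5 had an RMA level of 11.50 in CD133+ against 8.77 in CD133- in its representative probe set, with MAS5 intensities of 13896 in CD133+ and 1909 in CD133-. It was 6.60-fold higher in RMA and 7.28-fold in MAS5. Another probe set had 11.35 in CD133+ and 8.21 in CD133-, and the weakest had 6.39 in CD133+ and 3.38 in CD133-, where only CD133+ was above the floor. All 3 probe sets of CXCL5 were counted. Their differences, in the order just given, were 2.72, 3.15 and 3.02 in RMA and 2.86, 3.18 and 1.80 in MAS5. CXCL6 had an RMA level of 7.02 in CD133+ against 4.08 in CD133-, with MAS5 intensities of 681 in CD133+ against 80.7 in CD133-. Its CD133- value was under the floor, so no fold is given. The differences as measured were 2.94 in RMA and 3.08 in MAS5, and its CD133+ level was 1.89 above the CD133- floor.

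PF4 and PPBP encode platelet factor 4 and the precursor of neutrophil-activating peptide, both stored in platelet granules. PF4 had an RMA level of 7.65 in CD133+ against 5.86 in CD133-, with MAS5 intensities of 547 in CD133+ against 179.6 in CD133-. It was 3.46-fold higher in RMA and 3.04-fold in MAS5. PPBP, its neighbour, stayed below the floor at 2.85 in CD133+ against 2.57 in CD133- by RMA, with MAS5 intensities of 4.81 in CD133+ against 2.19 in CD133-. The PF4 probe set is of the _x_at type, which can share signal with related transcripts, and PF4V1 is a near-identical copy. The probe set of PF4V1 was below the floor, at 2.17 in CD133+ and 1.61 in CD133- by RMA. Of 9 platelet and megakaryocyte markers measured, PF4 was the one counted and 4 were below the floor, TUBB1, GP6, PPBP and PF4V1. The 9 summed to MAS5 intensities of 1067 in CD133+ and 591 in CD133-, PF4 included. The integrin gene ITGA2B had an RMA difference of 0.31 and the platelet glycoprotein gene GP9 one of 0.00.

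Neither receptor was counted. CXCR2, which binds all the Glu-Leu-Arg ligands, had an RMA level of 2.53 in CD133+ against 2.51 in CD133-, far below the floor, and MAS5 intensities of 18.1 in CD133+ against 4.79 in CD133-. CXCR1, which binds CXCL8 and CXCL6, had an RMA level of 6.16 in CD133+ against 6.10 in CD133-, with MAS5 intensities of 14.3 in CD133+ against 10.3 in CD133-. CXCR1 was thus above the floor in RMA, while its MAS5 values were under the lower quartile of their columns, which was 25.2 in CD133+ and 24.0 in CD133-. Its RMA difference was 0.06. The files used here hold no detection calls, so whether CXCR1 was present could not be settled. Levels of ligands and receptors come from probe sets of unlike affinity and were not ranked against each other.

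**Figure D2:**
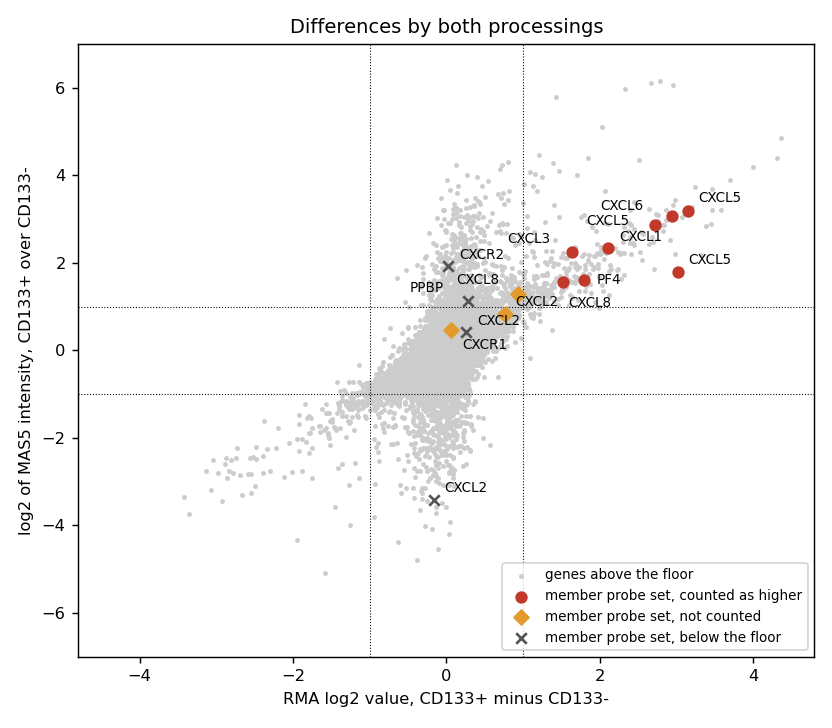
RMA difference (x axis) and log2 of the MAS5 ratio (y axis) of the 15 member probe sets, over the 13116 genes above the floor in grey, with dotted lines at 2-fold. The 8 counted probe sets lie in the upper right, CXCL8's and CXCL2's main probe sets near the 2-fold lines, and the probe sets below the floor near an RMA difference of 0.

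Markers of other cell types went both ways, and 2.21% of all named genes were counted in either direction. Of 11 leukocyte markers measured, LYZ, which encodes lysozyme, was counted as higher with an RMA difference of 1.73, and S100A9, a calcium-binding protein of myeloid cells, as lower at -2.48. PTPRC, the pan-leukocyte marker CD45, and CD14, FCGR3B and S100A8 were below the floor. The list summed to MAS5 intensities of 11257 in CD133+ and 6587 in CD133-. Without LYZ, left out after its values were seen, it summed to 1000.2 in CD133+ and 2579 in CD133-. S100A9 was kept in that smaller sum, at 359.7 in CD133+ and 2022 in CD133-, and alone sets its direction. Neither sum therefore shows which way the remaining leukocyte markers went. Of 8 endothelial markers 6 were below the floor, PECAM1 was counted as lower at -1.76, and the sums were 407 in CD133+ and 1087 in CD133-. Of 8 fibroblast and stellate cell markers 5 were below the floor, none was counted, and the sums were 1021 in CD133+ and 564 in CD133-. LUM, below the floor in both populations, had an RMA level of 4.54 in CD133+ and 2.01 in CD133-. Its MAS5 intensities were 132 in CD133+ and 14.7 in CD133-. The RMA differences of COL1A2, PDGFRB and PDGFRA were slightly negative, and the median over the 8 was 0.14. The part of other cell types in the chemokine differences was not tested.

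The genes counted as higher at the locus were all ligand genes, and its 2 counted flanking genes were lower. In the RefSeq order of chromosome 4, 10 measured genes run from CXCL8 to CXCL2, 8 of them members. All 10 had an RMA difference above 0, beside a median of 0.00 over all named genes. The other 2 in this run, PF4V1 and the pseudogene PPBPP2, were below the floor at 0.56 and 0.08, as was the member PPBP. In MAS5 the log2 ratio of PPBPP2 was -2.05, so the run was not uniform by both processings. On the far side of CXCL2, MTHFD2L, a mitochondrial folate enzyme, had a difference of 0.66 and EREG, which encodes the growth factor epiregulin, one of 0.14. None of the 5 measured genes from there to PARM1 was counted. On the other side, RASSF6 next to CXCL8 had 0.43. Farther out lie ALB, which encodes albumin, at 7.70 in CD133+ against 11.12 in CD133- by RMA, and AFP, which encodes alpha-fetoprotein, at 9.05 in CD133+ and 11.83 in CD133-. Both were counted as lower, ALB only with its _s_at probe sets, so genes on one stretch of the chromosome differed in opposite directions. CXCR1 and CXCR2 lie on chromosome 2.

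**Figure D3:**
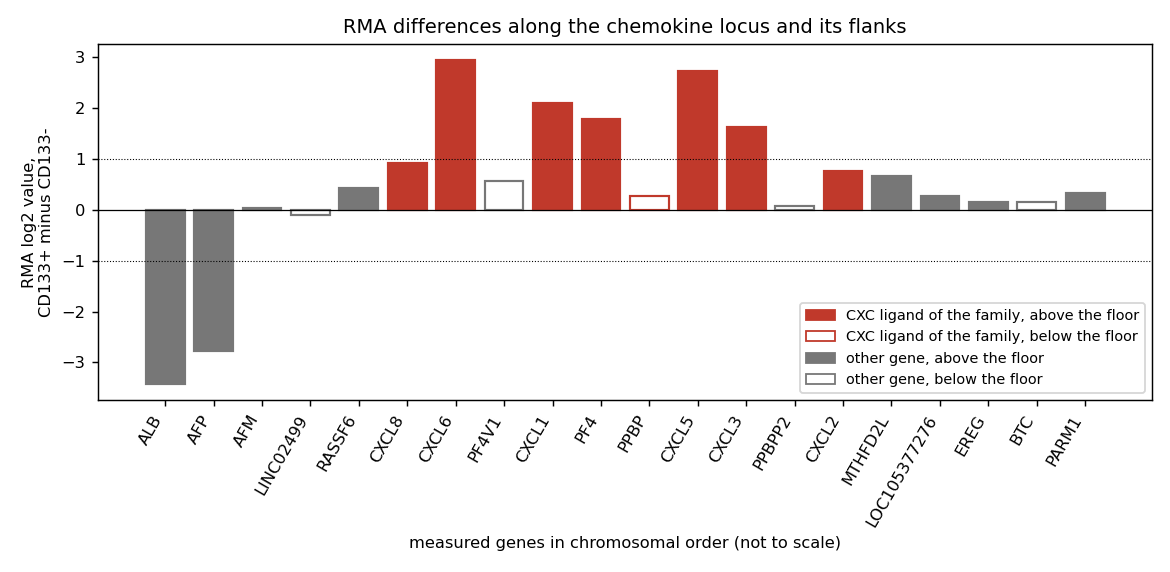
RMA difference, CD133+ minus CD133-, of the 20 measured genes from ALB to PARM1 in chromosomal order, not to scale, with family ligands in red, other genes in grey and genes below the floor as open bars. ALB and AFP are at -3.42 and -2.78, and the ligands between CXCL8 and CXCL2 lie between 0.28 and 2.94.

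Chemokine genes outside the cluster were mostly below the floor or not counted. Of 9 other CXC ligand genes measured, CXCL12 was counted as higher and 6 were below the floor. CXCL12, which encodes the ligand of CXCR4, had an RMA level of 7.46 in CD133+ against 5.14 in CD133-, with MAS5 intensities of 768 in CD133+ against 108 in CD133-. It was 4.98-fold higher in RMA, but its CD133- level only just reached the floor, so the size of this fold is uncertain. Its second probe set, with a CD133- level of 3.96 under the floor, was also counted as higher. Of 6 further CXC and atypical receptors none was counted, and the CXCL12 receptors CXCR4 and ACKR3 were below the floor. Among the 4 above the floor, ACKR1 and CXCR6 had the largest RMA differences, at -0.31 and -0.14. Of 21 CC and other chemokine ligands none was counted and 13 were below the floor. Over all named genes 2.21% were counted in either direction, so none counted in lists this short is near that share. Among the 8 above it, XCL1 and CCL28 had the largest RMA differences, at 0.50 and 0.48. The median over the 21 was 0.07, against 1.28 over the 10 genes described here.

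Most genes that regulate these ligands or carry their signal were not counted. Over the 9 lists of related genes, the neighbours at the locus included, 116 genes were measured, of which 3 were counted as higher and 4 as lower, or 6.03% in all, while 2.21% of all named genes were counted in either direction. CXCL12, NTS and MYD88 were the higher ones, and STAT3, PIK3R5, ALB and AFP the lower ones. These lists, like the members, were chosen with earlier results of these data known, so their share tests no enrichment. None of 13 NF-kappaB subunits and inhibitors was counted. NFKBIA and TNFAIP3, which encode inhibitors that NF-kappaB itself induces, had the largest RMA differences of that list, at 0.62 and 0.60, and the list's median was 0.06. Among 12 other inducers of CXC ligand transcription the median was -0.22, and STAT3 was counted as lower, at 8.66 in CD133+ and 9.83 in CD133- by RMA. Another STAT3 probe set was counted as lower as well. A further one above the floor, at -0.85 in RMA and -0.69 in MAS5, was not counted, and the last was below the floor. Among 18 inducing cytokines and receptors, NTS and MYD88 were counted as higher. NTS, which encodes neurotensin, had an RMA level of 13.39 in CD133+ against 11.80 in CD133-. MYD88, an adaptor of the interleukin-1 and Toll-like receptors, had 7.39 in CD133+ and 6.38 in CD133-, a difference of 1.01 that falls under the 2-fold line, at 0.99, when each RMA column is centred on its median. TNF, IL6 and IL1A were below the floor.

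None of 6 chemokine mRNA decay factors was counted, beside 2.21% of all named genes in either direction. Among them ZFP36, which encodes tristetraprolin, had the largest RMA difference at -0.61, followed by ELAVL1 at -0.24. Of 21 genes of CXCR1 and CXCR2 signalling, PIK3R5, a regulatory subunit of phosphoinositide 3-kinase gamma, was counted as lower, at 5.58 in CD133+ and 6.64 in CD133- by RMA. The median of these 21 was -0.19. PIK3CG, which encodes the catalytic subunit that PIK3R5 binds, was below the floor.

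**Figure D4:**
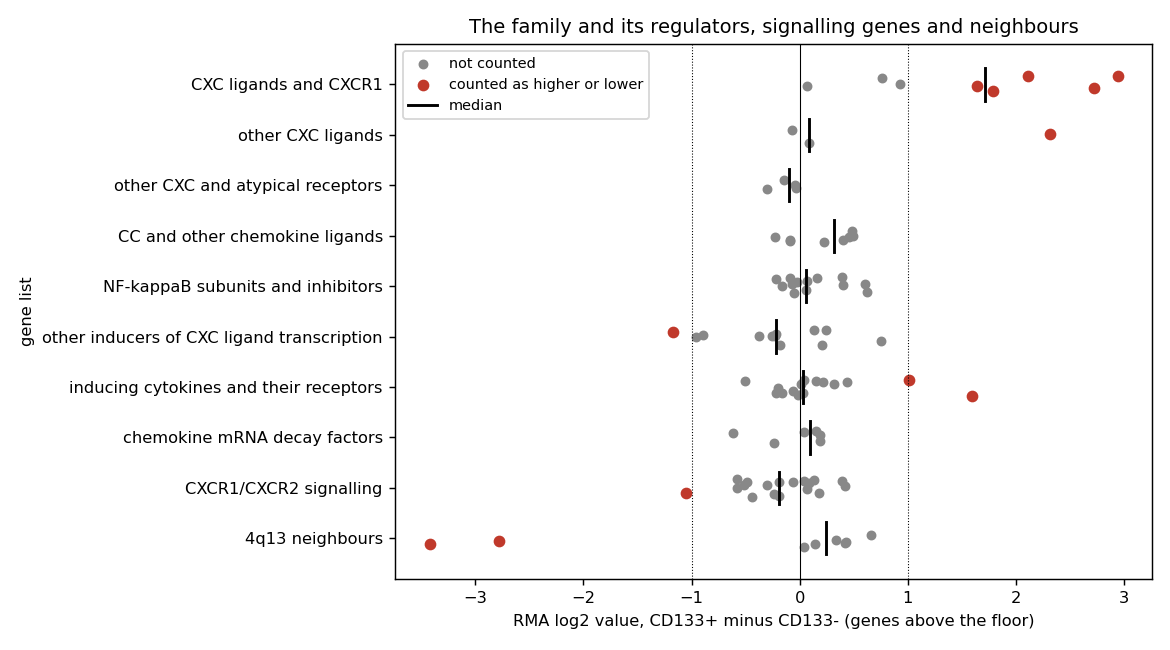
RMA difference, CD133+ minus CD133-, of each gene above the floor in the chemokine family and in 9 lists of related genes, with counted genes in red, others in grey and the list's median as a black bar. The family's 8 genes above the floor have a median of 1.71, and the medians of the other lists lie between -0.22 and 0.32.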

How the data were processed

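Sorted PLC8024 CD133+ and CD133- cells were measured on oligonucleotide arrays with 54675 probe sets. The authors deposited MAS5 intensity values on a linear scale and RMA values on the log2 scale, per the labels, and MAS5, RMA and GCOS are named in the submitters' processing notes. The sources used here give no versions, no detection calls and not which arrays were normalized together. MAS5 is scaled per array and RMA pulls low signals together, so low probe sets can have large MAS5 and small RMA differences. Genes were named from GEO's platform annotation: 41097 probe sets had 1 gene, 1801 several and 11777 none, and 41043 received a current RefSeq symbol. The probe set with the most RMA signal, averaged over both populations, stood for a gene. The fold threshold was 2, with no MAS5 pseudocount in the main setting, and folds are given only where both populations reached the floor. Precision is limited by the number of arrays, at most 1 for each population and processing, and a rule of size stood in for a test. All members are named, and of each list the counted genes or, with none, the 2 with the largest RMA difference above the floor. ITGA2B, GP9, the genes beside the locus, list members named as below the floor, and the leukocyte sum without LYZ were chosen after their values were seen. The members and lists were chosen with earlier results of these data known. The counting was tested on simulated data, which checks the code. Only genes with more CD133- signal than CXCL6, PF4 and CXCL3 were shifted there, with less noise than the spread between probe sets. It therefore does not show how the rule performs for those genes. Python 3.11.15, numpy 2.4.6, pandas 2.3.3 and matplotlib 3.10.9 were used, and 12 alternatives were tried.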

Additional observations from a re-analysis of the deposited data

How the results depend on the processing

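Over the 12 alternatives, CXCL6, CXCL1, CXCL5 and CXCL3 were counted as higher in every one, and PF4 in all in which it had a probe set, since its single one is lost without _x_at and _s_at probe sets. No member was counted as lower in any of them. CXCL8 was counted as higher at 2-fold in MAS5 alone, at 1.5-fold in both processings, and with the median over its probe sets, at an RMA difference of 1.22. Without _x_at and _s_at probe sets CXCL8 had no probe set and 4 member probe sets were counted. CXCL5 then rested on its weakest probe set, which passed the floor only through CD133+. CXCL2 was counted only at 1.5-fold. The median over member genes above the floor was 1.28 with no floor and 2.11 without _x_at and _s_at probe sets. Of the surrounding genes 7 were counted in the main setting, 18 at 2-fold in MAS5 alone, 11 at 1.5-fold and 3 at 3-fold. At 3-fold, NTS, MYD88, STAT3, PIK3R5 and LYZ were not counted. PIK3R5 and CXCR1 were below the floor when that was set at the 75th percentile. ALB and APOA1, at differences of -0.22 and -0.66, were below the floor and not counted without _x_at and _s_at probe sets. Each of these settings changes the floor, the fold threshold, the processing asked for or the probe sets used. Centring the RMA columns moved the median of all genes by less than 0.1, to -0.02. No replicate could be left out, and no paired analysis was possible because each population had 1 sample per processing.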

Other observations

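Several probe sets of the family and its receptors differed in MAS5 and hardly in RMA. PF4V1 had MAS5 intensities of 30.7 in CD133+ and 0.936 in CD133- cells, a log2 ratio of 5.04, beside an RMA difference of 0.56. A CXCL2 probe set below the floor had MAS5 intensities of 6.56 in CD133+ and 69.8 in CD133-, a log2 ratio of -3.41, beside an RMA difference of -0.17. CXCR2 had a MAS5 log2 ratio of 1.92 and an RMA difference of 0.02, and both populations were below the floor. CXCR3, which was above the floor, had a MAS5 log2 ratio of 3.21 and an RMA difference of -0.05. Both MAS5 values were under the medians of their columns in 5 of the 15 member probe sets.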
